A study of Mus musculus with 16 samples.

Results

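6 genes of the cell death machinery and its control were followed through 16 mouse tumours: Bcl2, Bcl2l1, Bid and Bax of the BCL2 family, the transcriptional repressor Bcl6, and Trp53, which encodes p53. They were taken by name from the 770 genes of the mouse PanCancer Immune panel of NanoString, whose colour-coded probes count transcripts directly, without amplification, and all 6 were measured. The tumours grew from MC38, a mouse colorectal cancer line, or from E0771, a mouse breast cancer line, after implantation of cells with matrigel at the right shoulder. Per the labels, every mouse, in all 4 groups, had been given immunotherapy against PD-1 and CTLA-4. Tumours were removed after the imaging of day 5. Hypoxia, the question of the study, was followed by 18F-FMISO PET, whose tracer is retained in oxygen-poor tissue, and the labels call each tumour hypoxic or normoxic. There were 4 normoxic MC38 tumours (mice 4, 7, 10 and 21), 4 hypoxic MC38 tumours (mice 12, 14, 17 and 25), 5 normoxic E0771 tumours (mice 4, 17, 38, 65 and 71) and 3 hypoxic E0771 tumours (mice 12, 22 and 55). The labels give no strain, sex or age of the mice and no dose, no untreated tumour was analysed here, and each line was the only source of its 8 tumours. Numbers on tumours are mouse numbers, and each number belongs to a different animal of its line.

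Proteins of the BCL2 family decide whether the outer mitochondrial membrane stays sealed. Bcl2 and Bcl2l1 (BCL-XL) hold it closed, Bax opens it by forming pores, and Bid, once cut by caspase-8 below a death receptor, carries that signal from the cell surface to Bax. p53, stabilised by DNA damage and other stresses, switches on arrest and death genes, Bax among them, and Bcl6 represses transcription in germinal centre B cells and follicular helper T cells, p53 being one of its known targets. Lymphocytes depend on BCL2 proteins for survival, so a tumour's level of these transcripts sums cancer cells and infiltrating cells.

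Values are the deposited normalized signals, scaled so that the geometric mean of 20 housekeeping genes is the same in every tumour, and every difference is relative to those genes. Estimated counts before scaling ran from 180274 to 890239 per tumour (median 531770). The 5 tumours of fewest counts were E0771 hypoxic 22 and 12, MC38 hypoxic 14 and 25, and E0771 normoxic 65, so 2 of 3 hypoxic E0771 and 2 of 4 hypoxic MC38 tumours are among them. Of the 712 genes above the filter on low signal, 346 passed the test between hypoxic and normoxic MC38 tumours, 4 of them higher and 342 lower under hypoxia, and the median gene differed by -1.27 on the log2 scale. With centring on the median gene of each tumour, 190 passed, 75 higher and 115 lower. A lower signal in bulk tumour RNA does not tell fewer cells of a type from less RNA per cell.

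The promoters are shown because ACGTG is a form of the short core that hypoxia-inducible factors bind. Other forms of that core were not searched. Some members hold the longer E-box CACGTG, in which ACGTG lies and which many other factors also bind. Each sequence is 300 bases, from 250 before the annotated start, on the strand of the gene, from RefSeq (build GRCm38.p6), with CACGTG in capitals. Bcl2 lies on chr1:106714241-106714540 (minus strand), Bax on chr7:45466849-45467148 (minus), Bcl6 at its first listed start site on chr16:23988803-23989102 (minus) and Trp53 on chr11:69580109-69580408 (plus).
Bcl2: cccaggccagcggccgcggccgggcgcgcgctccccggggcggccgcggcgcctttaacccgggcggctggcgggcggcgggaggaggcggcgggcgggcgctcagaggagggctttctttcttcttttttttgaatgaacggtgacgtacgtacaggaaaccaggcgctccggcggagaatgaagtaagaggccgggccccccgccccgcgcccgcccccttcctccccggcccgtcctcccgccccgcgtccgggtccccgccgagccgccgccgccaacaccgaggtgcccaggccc
Bax: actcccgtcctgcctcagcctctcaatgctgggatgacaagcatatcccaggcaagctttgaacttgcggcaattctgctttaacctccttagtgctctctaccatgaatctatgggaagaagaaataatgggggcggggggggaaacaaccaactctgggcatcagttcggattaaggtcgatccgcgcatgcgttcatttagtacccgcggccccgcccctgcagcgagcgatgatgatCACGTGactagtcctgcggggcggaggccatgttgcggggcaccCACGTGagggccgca
Bcl6: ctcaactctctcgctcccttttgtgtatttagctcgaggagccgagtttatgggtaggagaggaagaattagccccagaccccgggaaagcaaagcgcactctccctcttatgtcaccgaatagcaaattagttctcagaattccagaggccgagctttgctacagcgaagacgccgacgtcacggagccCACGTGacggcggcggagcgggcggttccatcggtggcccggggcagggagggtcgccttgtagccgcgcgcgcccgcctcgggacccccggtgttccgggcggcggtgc
Trp53: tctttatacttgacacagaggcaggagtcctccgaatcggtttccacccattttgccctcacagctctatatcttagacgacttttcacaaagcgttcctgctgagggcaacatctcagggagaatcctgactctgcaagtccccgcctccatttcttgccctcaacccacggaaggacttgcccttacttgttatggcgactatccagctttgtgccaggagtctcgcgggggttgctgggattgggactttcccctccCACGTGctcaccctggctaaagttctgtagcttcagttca

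Both strands were searched, for ACGTG and CACGTG only. The Bax window held 2 E-boxes, at positions -9 and 36 relative to the start, the Bcl6 window 1 at -60 and the Trp53 window 1 at 11, and none of the 3 held ACGTG outside an E-box. No ACGTG lay in the windows of Bcl2, Bid, the 3 start sites of Bcl2l1 or the second start site of Bcl6. Of 32851 mouse promoter windows of this length, 19.6% held ACGTG on either strand and 7.15% held CACGTG. The Bcl2 window was 76% G and C, against a median of 52.7%.

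Between lines, 3 of the 6 genes passed the test (limma, adjusted p under 0.05 over all 712 genes), against 13.6% of all genes: 2 were higher in E0771 (Bcl2l1 and Bcl6), against 4.78% of all genes, and 1 was lower (Bid), against 8.85%. These 3 genes had no overlap between the 8 tumours of each line, which held for 3.65% of all genes. Between hypoxic and normoxic MC38 tumours, on the deposited scaling, only Bcl2 passed, 1 of 6 against 48.6% of all genes, and it was lower under hypoxia, the direction of 48% of all genes. The median of the 6 log2 differences there was -0.16, beside -1.27 for all genes. In E0771, 0 of 6 passed against 0% of all genes (limma), where 45 of 712 genes and 0 members had an unadjusted p under 0.05. The interaction test in limma, which asks whether the hypoxia effect differed between lines, passed for 0 of 6 members, again against 0% of all genes, with 133 genes and 0 members under an unadjusted p of 0.05. With both lines weighted equally, 1 of 6 passed against 42.1% of all genes, and that gene was Bcl2, lower under hypoxia like 41.4% of all genes; 0.702% were higher. No member was free of overlap between hypoxic and normoxic tumours, in MC38 against 24.9% of all genes and in E0771 against 0.702%.

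**Figure D1:**
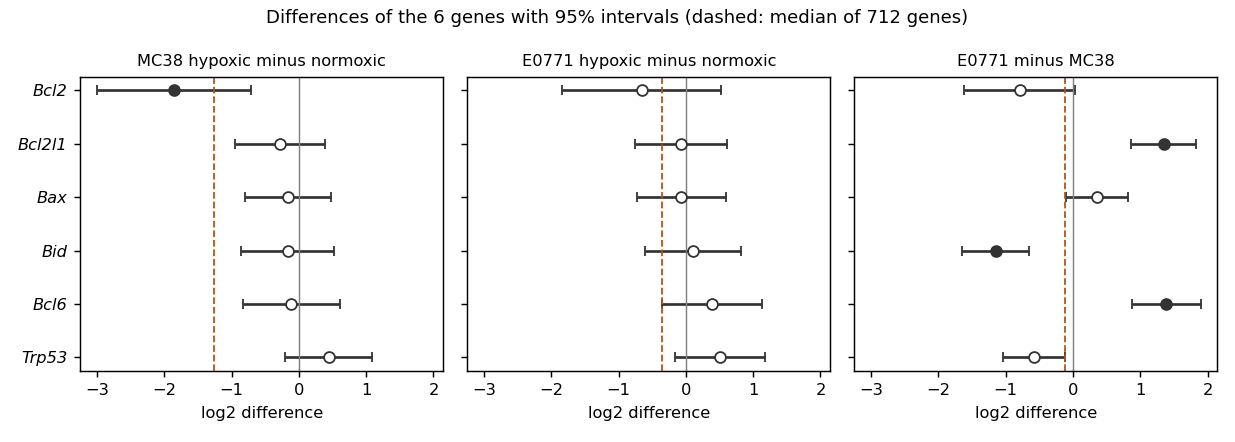
Log2 difference (horizontal axis) of each of the 6 genes in 3 comparisons, with 95% intervals; filled points passed the test across 712 genes, and the dashed line is the median of all 712. In MC38 only Bcl2 lies to the left of the dashed line at -1.27, whereas in E0771 minus MC38 Bcl2l1 and Bcl6 lie to the right of 0 and Bid to the left, each with an interval clear of 0.

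Bcl2, the anti-apoptotic founder of the family, was the only member that passed a test of hypoxia status on the deposited housekeeping scaling. In normoxic MC38 tumours its signal was 153 in mouse 4, 192 in mouse 7, 34.5 in mouse 10 and 135 in mouse 21. In hypoxic MC38 tumours it was 26.2 in mouse 12, 26.5 in mouse 14, 46.7 in mouse 17 and 22.4 in mouse 25. Thus 3 normoxic tumours lay well above all 4 hypoxic ones, and normoxic 10 lay among them, so the groups overlapped. The group means were 129 ± 67.2 (SD, n = 4) and 30.4 ± 11 (SD, n = 4), and the log2 difference was -1.86 ± 0.54 (SE), 3.63-fold lower, with a 95% interval of -3.0 to -0.72 and an adjusted p of 0.0133 (limma).

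That call rested on the scaling and on few tumours. When the median gene of each tumour was set to 0, so that the shift of the whole panel is removed, the difference was -0.74 (adjusted p = 0.162, limma), and it was -1.59 (adjusted p = 0.0502) without normoxic 7 and, leaving out the 5 tumours of fewest counts, -1.61 (adjusted p = 0.182). With scaling on the positive-control probes it was -1.74 (adjusted p = 0.0832). At these 4 settings the median gene differed by -0.15, -1.24, -1.03 and -1.14, so Bcl2 was lower than it each time, though past the threshold in none. With the centring on the median gene, Trp53 passed in MC38 instead (1.57, adjusted p = 0.0277, limma). Over the 11 alternatives other than single tumours left out, the adjusted p of Bcl2 in MC38 ran from 0.00997 to above the threshold (limma).

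In E0771 the Bcl2 signal was low in both groups. Normoxic tumours read 51.8 in mouse 4, 23.6 in mouse 17, 47.6 in mouse 38, 55.8 in mouse 65 and 34.1 in mouse 71, with a mean of 42.6 ± 13.4 (SD, n = 5). Hypoxic tumours read 13.7 in mouse 12, 38.7 in mouse 22 and 30.8 in mouse 55, with a mean of 27.7 ± 12.8 (SD, n = 3). The groups overlapped, and the log2 difference of -0.65 ± 0.56 (SE; 95% interval -1.83 to 0.53) did not pass (adjusted p = 0.664, limma). With background subtracted it was -1.90 (adjusted p = 0.313, limma). That subtraction sets values near or under background to a fixed floor, and Bcl2 in hypoxic 12 was at this floor. On the deposited values without hypoxic 12 the difference was -0.23 (adjusted p = 0.997, limma). Depth limits these values. Bcl2 had 6 estimated counts in hypoxic 12 and 11 in hypoxic 22, where the mean of the 8 negative-control probes was 7.63 and 7 counts and the highest of them 17 and 15. In 2 of the 3 hypoxic E0771 tumours Bcl2 was thus not above the highest negative probe, and in hypoxic 12 not above their mean. The hypoxia effects of the lines differed by 1.21 ± 0.78 (SE), which did not pass (adjusted p = 0.389, limma). With the lines weighted equally Bcl2 was lower under hypoxia by -1.26 ± 0.39 (log2, SE; adjusted p = 0.0249, limma). This last call was lost on leaving out MC38 normoxic 4 (-1.17, adjusted p = 0.0527), MC38 normoxic 7 (-1.12, 0.0530), MC38 hypoxic 25 (-1.20, 0.0553) or E0771 hypoxic 12 (-1.04, 0.0837). Between lines Bcl2 overlapped and did not pass (E0771 minus MC38 -0.79 ± 0.39, SE; adjusted p = 0.196). Its order was MC38 normoxic, then E0771 normoxic, MC38 hypoxic and E0771 hypoxic, and among the last 3, neighbouring means differed by less than the larger SD.

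**Figure D2:**
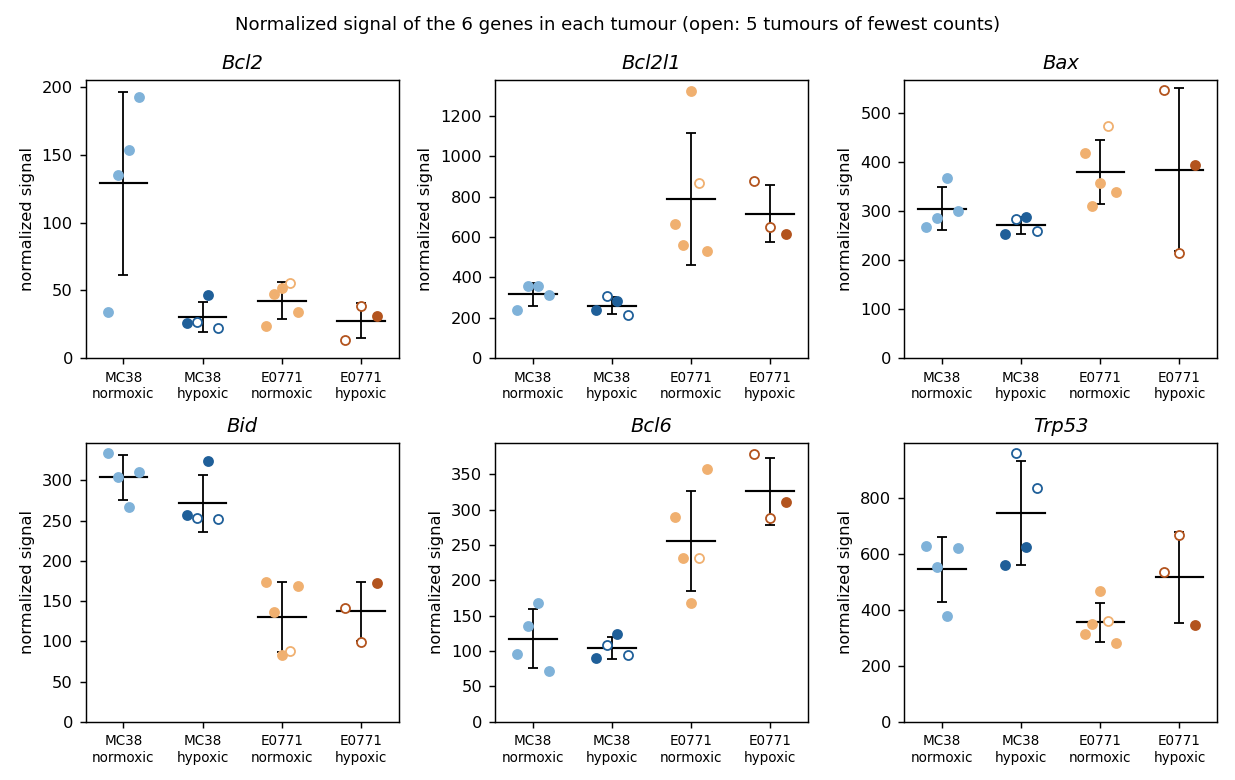
Normalized signal (vertical axis, linear, from 0) of each gene in every tumour by group; bars give the mean and SD, and open points are the 5 tumours of fewest counts. Bcl2 stands out in 3 of 4 normoxic MC38 tumours (135 to 192), Bcl2l1 and Bcl6 are higher and Bid lower in both E0771 groups than in both MC38 groups, and Bax and Trp53 overlap between hypoxic and normoxic tumours of each line.

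Over the 16 tumours Bcl2 correlated with the summed B cell markers, a sum that lay near background in many of them. The summed signal of 5 B cell markers (Ms4a1, Cd79a, Cd79b, Blk and Pax5) was 366, 558, 74.7 and 382 in normoxic MC38 mice 4, 7, 10 and 21, so normoxic 10, the tumour of low Bcl2, was the lowest of them. It was the lowest normoxic MC38 tumour for 7 of the 8 marker lists, all but the endothelial. The sum was 21.1 to 82.8 in hypoxic MC38, 49.95 to 123 in normoxic E0771 and 31.9 to 106 in hypoxic E0771 tumours. Background was not subtracted: the sum was below that of 5 mean negative probes in 3 tumours (MC38 hypoxic 25, E0771 hypoxic 12 and 22) and less than 2 times it in 4 others, so these 7 sums were near or under background. After subtraction of group means, the log2 signal of Bcl2 and the log2 sum correlated at r = 0.92 (n = 16 tumours), and at 0.96 without that subtraction. In the 9 tumours whose sum was over 2 times background, none of them hypoxic E0771, the group-centred r was 0.99. MC38 normoxic 10, the lowest of its group in both Bcl2 and this sum, was among these 9, and its weight in r was not tested. Over all 16 tumours the group-centred correlation of Bcl2 was 0.75 with 5 fibroblast markers and 0.67 with 4 neutrophil markers. It was 0.59 with 6 macrophage and monocyte markers and 0.54 with 3 epithelial markers. With 7 T cell markers and with the leukocyte gene Ptprc it was 0.53, and with 4 endothelial markers 0.41. Under the same cut at 2 times background it was 0.62 for neutrophil (15 tumours) and 0.47 for epithelial markers (12 tumours). The other lists kept all 16 tumours. These points share each tumour's scaling factor and depth, and no p is given. Taken singly after subtraction of group means, the T cell markers correlated with Bcl2 at 0.39 (Cd3e) to 0.88 (Cd2). The tested B cell markers did so at 0.72 (Pax5) to 0.87 (Ms4a1). For the other 5 members the group-centred correlation with the B cell sum ran from -0.30 for Bid to 0.31 for Bcl2l1.

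Markers of many cell types were lower in hypoxic MC38 tumours together with Bcl2, and their part in its difference was not tested. All 3 tested B cell markers passed as lower, and so did 4 of 7 T cell, 5 of 6 macrophage and monocyte, 3 of 4 neutrophil, 3 of 5 fibroblast, 1 of 4 endothelial and 1 of 2 epithelial markers, beside 48% of all genes. The T cell sum was 722 to 1447 in normoxic and 166 to 607 in hypoxic MC38 tumours. In E0771 it was 326 to 3478 in normoxic and 259.98 to 1129.9 in hypoxic tumours, and no marker of any list passed there. E0771 normoxic 65, with the highest T cell sum of all, had a Bcl2 signal of 55.8, below the 3 high MC38 tumours. No marker read 1 or less in any tumour, but some values stood for 1 estimated count. Cd79a read as little as 1.06 in normoxic E0771 and 1.24 in hypoxic MC38 tumours. The scaling factors of E0771 normoxic 71 and MC38 hypoxic 25 were also 1.06 and 1.24. Epcam, an epithelial marker, read 3.73 to 46.6 in hypoxic MC38 (median 15.7) and 9.58 to 497 in normoxic E0771 tumours (median 13.3). Its lowest values lay within the range of the mean negative probe after scaling, 2.69 to 24.6 over all tumours. Whether Epcam follows the share of carcinoma cells was not tested.

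**Figure D3:**
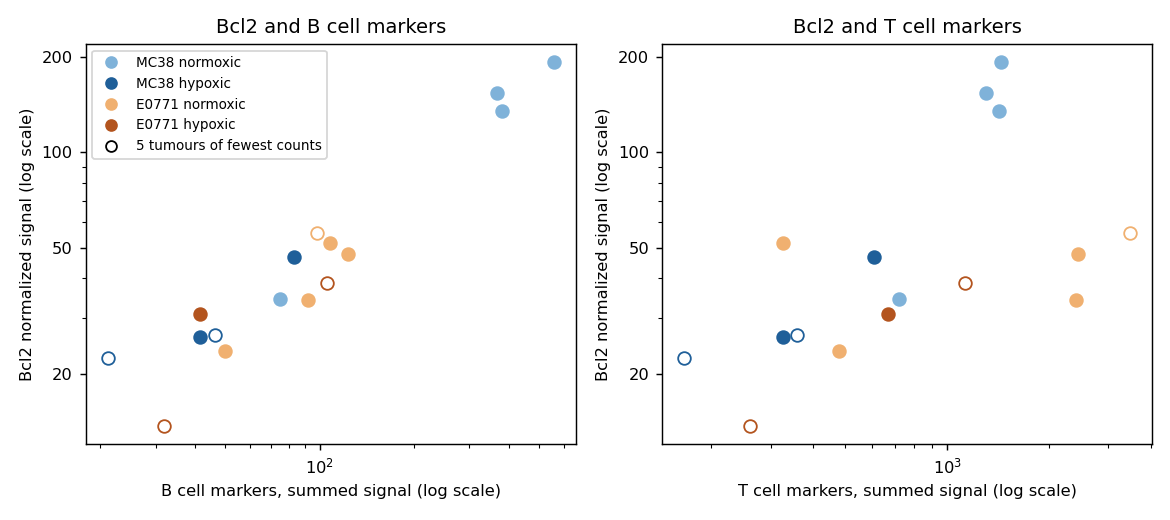
Bcl2 normalized signal (vertical axis, log scale) against the summed signal of 5 B cell markers (left) and of 7 T cell markers (right), both on log scales, 1 point per tumour. Bcl2 lies along the B cell sum over all 16 tumours (group-centred r = 0.92), with 7 sums less than 2 times background. The E0771 tumours of high T cell sum (up to 3478) lie below the 3 high normoxic MC38 tumours. The T cell marker Cd2 taken singly had a group-centred r of 0.88 with Bcl2.

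Bcl2l1, the other anti-apoptotic member, differed by line and not detectably by hypoxia status. Its signal in normoxic MC38 mice 4, 7, 10 and 21 was 357, 314, 239 and 357, and in hypoxic mice 12, 14, 17 and 25 it was 240.2, 307.5, 282 and 212. In E0771 it was 1322, 665, 559.7, 865 and 530.3 in normoxic mice 4, 17, 38, 65 and 71, and 876, 651 and 616 in hypoxic mice 12, 22 and 55. The lowest E0771 tumour (530.3) lay above the highest MC38 tumour (357), and E0771 normoxic 4 was the highest of all. The mean was 317 ± 55.6 (SD, n = 4) and 261 ± 42.4 (n = 4) in normoxic and hypoxic MC38, against 788 ± 326 (n = 5) and 714 ± 141 (n = 3) in E0771. Bcl2l1 was 2.54-fold higher in E0771 (log2 difference 1.35 ± 0.23, SE; 95% interval 0.87 to 1.83; adjusted p = 0.000585, limma). The fold was 2.37 among normoxic and 2.73 among hypoxic tumours, without overlap in either. Hypoxic and normoxic tumours overlapped within each line, with differences of -0.28 ± 0.32 in MC38 (95% interval -0.94 to 0.39; adjusted p = 0.466) and -0.07 ± 0.33 in E0771 (-0.76 to 0.61; adjusted p = 0.956).

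Bid, the link from death receptors to the mitochondrion, had the opposite line difference. It read 267, 311, 334 and 305 in normoxic MC38 mice 4, 7, 10 and 21 and 257, 253, 324 and 252 in hypoxic mice 12, 14, 17 and 25. It read 82.7, 173, 136, 87.6 and 169 in normoxic E0771 mice 4, 17, 38, 65 and 71 and 141, 98.6 and 172 in hypoxic mice 12, 22 and 55. Every MC38 tumour (lowest 252) lay above every E0771 tumour (highest 173). The E0771 level was lower by 2.21-fold (log2 difference -1.15 ± 0.24, SE; adjusted p = 0.00292, limma), and MC38 was 2.44-fold higher among normoxic and 2.01-fold among hypoxic tumours. Within MC38 the tumours of both groups spanned only 1.32-fold from lowest to highest, the narrowest range of any member in either line. Hypoxic minus normoxic was -0.17 ± 0.33 in MC38 (95% interval -0.86 to 0.52; adjusted p = 0.677) and 0.11 ± 0.34 in E0771 (-0.60 to 0.82; adjusted p = 0.922).

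The calls between lines for Bcl2l1 and Bcl6 depended on the scaling. With centring on the median gene, Bcl2l1 was 1.37 higher in E0771 (adjusted p = 0.00359) and Bcl6 1.41 higher (adjusted p = 0.000864, limma). Bid was lower there by -1.13 (adjusted p = 0.0123, limma). When tumours were scaled on the positive-control probes, which moved the median gene of E0771 minus MC38 from -0.12 to -0.88, Bcl2l1 was 0.57 higher (adjusted p = 0.431) and Bcl6 0.62 higher (adjusted p = 0.386), and Bid was lower by -1.91 (adjusted p = 0.00777, limma). Without the 5 tumours of fewest counts the differences were 1.22 for Bcl2l1 and 1.36 for Bcl6 (adjusted p = 0.0707 for each) and -0.95 for Bid (adjusted p = 0.123). Over 11 alternatives the adjusted p was 0.000468 to 0.431 for Bcl2l1, 0.000567 to 0.386 for Bcl6 and 0.00185 to 0.123 for Bid. The labels name no batch, and a batch in step with the line could not be separated from it.

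Bcl2l1 and Bid moved apart between tumours. Their log2 signals correlated at -0.90 over the 16 tumours and at -0.61 after subtraction of group means, the lowest of all pairs of members by either measure. The log2 ratio of Bcl2l1 to Bid, a pair chosen after its values were seen, does not depend on the scaling factor. It was -0.48 to 0.42 in normoxic and -0.25 to 0.28 in hypoxic MC38 tumours, against 1.64 to 3.98 in normoxic and 1.84 to 2.71 in hypoxic E0771 tumours. The lines differed in this ratio by 2.49 (log2), while hypoxic minus normoxic was -0.11 in MC38 and -0.19 in E0771.

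**Figure D4:**
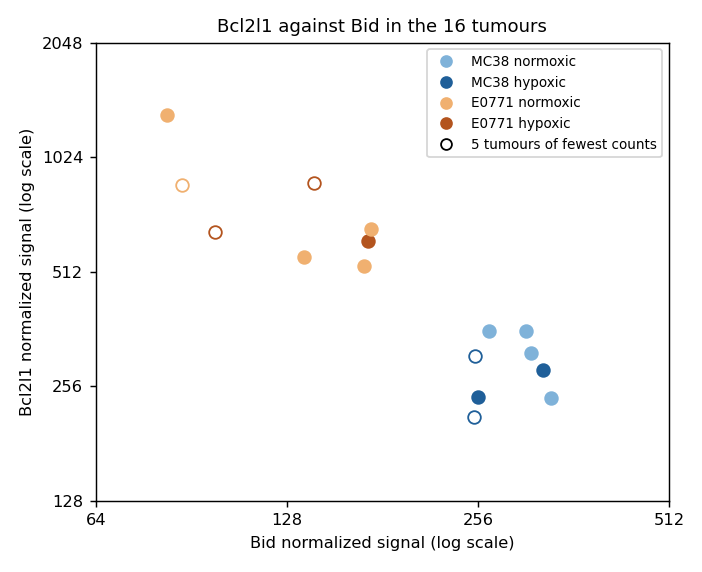
Bcl2l1 against Bid normalized signal in the 16 tumours, both axes on log scales; open points are the 5 tumours of fewest counts. The E0771 tumours lie at the upper left (Bcl2l1 at least 530.3, Bid at most 173) and the MC38 tumours at the lower right (Bcl2l1 at most 357, Bid at least 252), with hypoxic and normoxic tumours mixed within each cloud.

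Bax, the pore-forming member and a target of p53, passed no comparison. It read 368, 301, 268 and 286 in normoxic MC38 mice 4, 7, 10 and 21 and 254, 284, 289 and 259.6 in hypoxic mice 12, 14, 17 and 25. In E0771 it read 359, 419, 312, 475 and 339 in normoxic mice 4, 17, 38, 65 and 71, and 547, 215 and 394 in hypoxic mice 12, 22 and 55. The 3 hypoxic E0771 tumours thus held both the highest and the lowest value of all, the lowest from 61 estimated counts. Bax differed by -0.16 ± 0.30 with hypoxia in MC38 (log2, SE; 95% interval -0.80 to 0.48; adjusted p = 0.668, limma), by -0.07 ± 0.31 in E0771 (-0.73 to 0.60; adjusted p = 0.956) and by 0.36 ± 0.22 between E0771 and MC38 (-0.10 to 0.82; adjusted p = 0.310). Neighbours in the order of its group means (385, 381, 306 and 272) overlapped throughout.

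The ratio of Bax to Bcl2, often read as a measure of how close cells stand to death, was higher in the hypoxic MC38 tumours than in 3 of the 4 normoxic ones. The log2 ratio was 0.64 to 2.92 in normoxic and 2.61 to 3.48 in hypoxic MC38 tumours, a difference of means of 1.70, and only normoxic 10 (2.92) reached the hypoxic range. In E0771 it was 2.69 to 4.09 in normoxic and 2.44 to 5.22 in hypoxic tumours, a difference of 0.59 with full overlap. The highest of these, 5.22, came from hypoxic 12, whose Bcl2 was not above background, and without that tumour the difference was -0.14. The ratio of Bax to Bcl2l1 was -0.32 to 0.29 over all MC38 tumours and -1.88 to -0.64 over all E0771 tumours, lower in E0771 by -0.99 on the log2 scale. It differed with hypoxia by 0.12 in MC38 and 0.01 in E0771. Trp53 to Bcl2 gave the largest hypoxia difference of the 5 ratios to Bcl2, at 2.30 in MC38 (1.30 to 4.15 in normoxic, 3.71 to 5.17 in hypoxic tumours) and 1.16 in E0771 (2.67 to 3.68 and 3.45 to 5.19; 0.69 without hypoxic 12). For Bid, Bcl2l1 and Bcl6 against Bcl2 the MC38 difference was 1.58 to 1.75. The 5 ratios to Bcl2 share 1 denominator and are not separate observations.

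**Figure D5:**
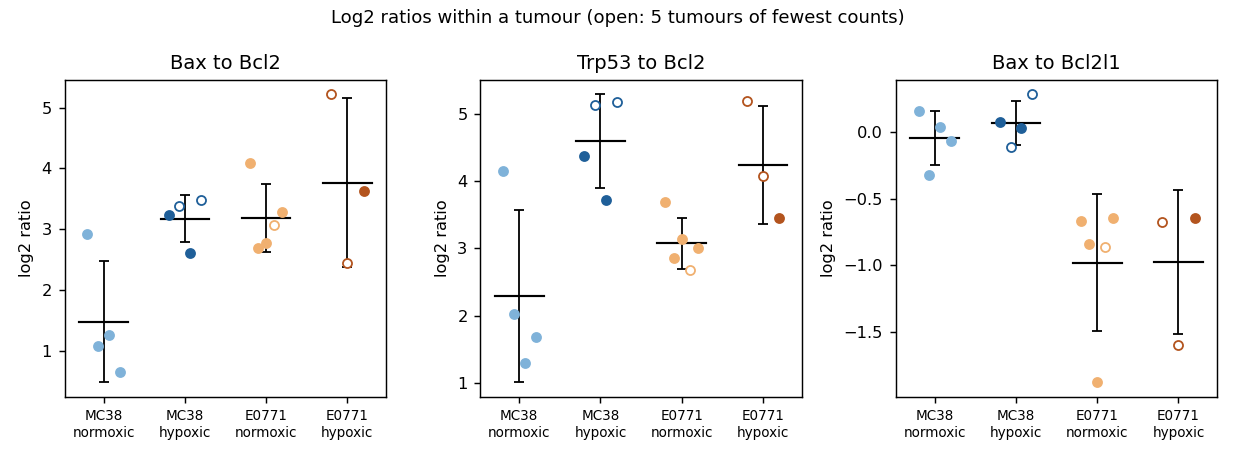
Log2 ratio of 2 genes within each tumour by group, with mean and SD; open points are the 5 tumours of fewest counts. Bax to Bcl2 and Trp53 to Bcl2 are low in 3 of 4 normoxic MC38 tumours, and Bax to Bcl2l1 lies between -0.32 and 0.29 in MC38 and between -1.88 and -0.64 in E0771.

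Bcl6, the repressor, was higher in E0771. Its signal was 167, 72.3, 95.5 and 135 in normoxic MC38 mice 4, 7, 10 and 21 and 89.9, 109, 124 and 94.4 in hypoxic mice 12, 14, 17 and 25. In E0771 it was 168, 289, 231, 231 and 357 in normoxic mice 4, 17, 38, 65 and 71 and 379, 289 and 310.0 in hypoxic mice 12, 22 and 55. The lines did not overlap, but only just, at 167.13 in MC38 normoxic 4 and 167.94 in E0771 normoxic 4. E0771 was 2.62-fold higher (log2 difference 1.39 ± 0.24, SE; 95% interval 0.87 to 1.90; adjusted p = 0.000864, limma), with folds of 2.20 among normoxic and 3.11 among hypoxic tumours. The group means were 117 ± 42.0 (SD, n = 4) in normoxic and 104 ± 15.3 (n = 4) in hypoxic MC38, and 255 ± 71.1 (n = 5) in normoxic and 326 ± 47.0 (n = 3) in hypoxic E0771. Within lines hypoxic and normoxic tumours overlapped, with differences of -0.11 ± 0.34 in MC38 (adjusted p = 0.807) and 0.39 ± 0.35 in E0771 (95% interval -0.35 to 1.13; adjusted p = 0.686).

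Of 17 listed Bcl6 partners, targets and follicular genes, 16 were tested. In E0771 minus MC38, 3 of the 16 passed, beside 13.6% of all genes, 2 higher and 1 lower: Prdm1, the plasma cell regulator that Bcl6 represses, by 1.42 ± 0.37 (log2, SE; adjusted p = 0.0135, limma), Myc by 1.25 ± 0.33 (adjusted p = 0.0155), and the cytokine Il6 by -1.86 ± 0.49 (adjusted p = 0.0139). Prdm1 and Bcl6 were therefore both higher in the same line. In hypoxic MC38 tumours 13 of the 16 passed as lower, beside 48% of all genes. The list median was -2.02 beside -1.27 for all genes, and Bcl6 itself differed by -0.11. Il4, a cytokine of follicular helper and type 2 T cells, fell the most (-3.57 ± 0.78, adjusted p = 0.00732), and Prdm1 fell too (-1.99 ± 0.51, adjusted p = 0.00834). Myc differed by 0.82 ± 0.46 and did not pass (adjusted p = 0.143). In hypoxic E0771 tumours 0 of the 16 passed, from -1.68 for Cxcl13 to 1.11 for Myc.

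On the deposited scaling Trp53 was the only member with a positive difference under hypoxia in both lines, and neither passed. With centring on the median gene Bax, Bcl2l1, Bid and Bcl6 were positive in both lines too, and with positive-control scaling Trp53 was -0.70 in E0771. The signal was 379, 622, 629.8 and 552 in normoxic MC38 mice 4, 7, 10 and 21 and 561, 962, 624 and 837 in hypoxic mice 12, 14, 17 and 25. In E0771 it was 467, 315, 351, 361 and 282 in normoxic mice 4, 17, 38, 65 and 71 and 534, 669 and 346 in hypoxic mice 12, 22 and 55. Within each line the 2 highest hypoxic tumours, mice 14 and 25 of MC38 and mice 22 and 12 of E0771, were the 2 with the fewest counts, and hypoxic and normoxic tumours overlapped. The log2 difference was 0.44 ± 0.31 in MC38 (SE; 95% interval -0.20 to 1.09; adjusted p = 0.223, limma), 0.51 ± 0.32 in E0771 (-0.16 to 1.17; adjusted p = 0.620) and 0.48 ± 0.22 with both lines weighted equally (0.01 to 0.94; adjusted p = 0.0826, limma). Leaving out the 5 tumours of fewest counts it was 0.14 in MC38 and -0.0050 in E0771, and the mean over lines was 0.07 (adjusted p = 0.876). Centred on each tumour's median gene, it was 1.57 in MC38 (adjusted p = 0.0277), which is its distance from a panel that was lower as a whole, and over 11 alternatives its adjusted p in MC38 was 0.0277 to 0.770. Between lines Trp53 overlapped, and E0771 minus MC38 was -0.58 ± 0.22 (adjusted p = 0.0964), or -0.66 (adjusted p = 0.0390) without MC38 normoxic 4.

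Of 16 listed p53 partners and targets, 7 besides Bax were measured. In hypoxic MC38 tumours 2 passed as lower, beside 48% of all genes. Cdkn1a, the p53-induced inhibitor of cell division, differed by -1.07 ± 0.41 (log2, SE, adjusted p = 0.0391, limma). The death receptor Fas differed by -1.73 ± 0.49 (adjusted p = 0.0119, limma), and Tnfrsf10b, the TRAIL receptor, by 0.02. The list median was -0.77 beside -1.27 for all genes. Between lines and in hypoxic E0771 tumours 0 of the 7 passed.

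Upstream of Bid, 7 of 10 listed death receptors, ligands and adaptors were measured. Fas and its adaptor Fadd (-1.65 ± 0.48, adjusted p = 0.0131, limma) passed as lower in hypoxic MC38 tumours, 2 of 7 beside 48% of all genes. The list median was -1.03. Downstream, 4 of 14 listed caspases and inhibitors were measured and 0 passed in any comparison. Casp8, which cuts Bid, differed by -0.76 ± 0.38 in hypoxic MC38 tumours (adjusted p = 0.105) and by -0.48 ± 0.27 between E0771 and MC38 (adjusted p = 0.272), and the survivin gene Birc5 differed by 0.12 ± 0.38 and -0.01 ± 0.27. Of the 7 listed anti-apoptotic and 11 listed pro-apoptotic BCL2 relatives, the panel measured only the members described here, 2 of each.

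The genes most like each member were found by Pearson correlation of log2 signals after subtraction of group means, over 16 tumours, and are given as a description. Bcl2 was closest to Il12b (0.94), a cytokine subunit, Klrb1c (0.92), an NK cell receptor, and Ccl19 (0.92), a chemokine. Bid was closest to the interferon-induced GTPase genes Irgm2 (0.82) and Gbp5 (0.79), with G6pdx (0.81) between them. Bax was closest to Map2k2 (0.86), Oaz1 (0.82) and Irf3 (0.80), and Trp53 to Tubb5 (0.73), Polr1b (0.69) and Anp32b (0.68). G6pdx, Oaz1, Tubb5 and Polr1b are housekeeping genes that set the scaling, so likeness to them includes the spread of the scaling genes. Bcl6 was closest to H2.D1 (0.82), Sh2b2 (0.77) and Stat3 (0.72). Bcl2l1 had the weakest leading partners, H2.Q10 (0.68), Lyve1 (0.68) and Ctsg (0.66).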

How the data were processed

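RNA of 16 tumours was counted on the NanoString mouse PanCancer Immune panel, 784 probes for 770 genes, 8 negative and 6 positive controls. The deposited values are a normalized signal on a linear scale; no source used here gives the software or steps behind them. They are whole numbers (to within 0.1 step, for 100% of genes in each tumour) times 1 factor per tumour (0.631 to 3.52), set on 20 housekeeping genes. Background had not been subtracted, and the factor multiplies it: the mean negative probe was 2.69 to 24.6 after scaling. Dividing by the factor gave estimated counts, used for depth and for alternatives.

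Groups came from the labelled line and hypoxia status. Genes with a mean signal of at least 24.0 (mean plus 2 SD of the scaled negative probes) were tested, 712 in all, the 6 described genes among them. Values entered limma 3.58.1 (R 4.3.3; lmFit, eBayes with trend) as log2(signal + 1), which understates differences of low genes, with the means of the 4 groups and no covariate. p-values were adjusted over all 712 genes by the Benjamini-Hochberg method, and 0.05 was the threshold. The fit was tested on simulated data. Ratios within a tumour, correlations and likeness are descriptions without a test.

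The genes, the pathway and marker lists and the tests were chosen with earlier results of these data known. Named genes are the 6, the 3 most like each, and the ends of each list, and any other listed gene was named after its values were seen. The marker sums leave out 1 listed gene, which is not reported here. Alternatives were other scalings, filters, a pseudocount of 10, background subtraction, other variance models, precision weights, fits of 1 line, mouse number as a random block, and leaving out tumours. Promoters are those of RefSeq, build GRCm38.p6, matched by symbol for 6 of 6 genes.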

Additional observations from a re-analysis of the deposited data

Results flagged for a closer look

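2 values stood far from the others of their group. Bid in hypoxic MC38 mouse 17 was 324, while the other 3 hypoxic MC38 tumours read 252 to 257. On the log2 scale, which the screen used, its gap to them was 0.930 of the group's whole range. The log2 ratio of Bax to Bcl2l1 in normoxic E0771 mouse 4 was -1.88, while the others of that group lay between -0.87 and -0.65, a gap of 0.823 of the range; this tumour had the highest Bcl2l1 signal of all. The screen covered 39 groups of 4 or 5 tumours, 18 of gene signals and 21 of ratios that share genes, and chance alone sets apart about 1 in 20 groups by this measure.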

How the results depend on the processing

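The number of the 6 genes that passed between hypoxic and normoxic MC38 tumours went from 1 to 0 with positive-control scaling and without the 5 tumours of fewest counts, and was 0 to 1 on leaving out single tumours (0 without normoxic 7). For the mean of both lines it went from 1 to 2 with median-gene centring (Bcl6 0.91, adjusted p = 0.0320, and Trp53 1.25, adjusted p = 0.0214, limma, in place of Bcl2 at -0.48) and to 0 without the 5 tumours, and was 0 to 1 on leaving out single tumours. For E0771 minus MC38 it went from 3 to 0 without the 5 tumours and was 3 to 4 on leaving out single tumours, the fourth being Bcl2 (-1.06, adjusted p = 0.0272) without MC38 normoxic 10 or Trp53 without MC38 normoxic 4. With positive-control scaling it was 2, Bid and Bcl2 (-1.52, adjusted p = 0.0400). In E0771 and in the interaction it was 0 under every alternative run.

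Signs turned for differences that had not passed. With median-gene centring, which moved the median MC38 difference from -1.27 to -0.15, hypoxic minus normoxic in MC38 was 0.96 for Bax, 0.84 for Bcl2l1, 1.01 for Bcl6 and 0.95 for Bid. In E0771 it was 0.36 for Bax and 0.35 for Bcl2l1, and for the mean of both lines 0.66 for Bax, 0.60 for Bcl2l1 and 0.75 for Bid. The interaction was -0.60 for Bax, -0.49 for Bcl2l1, -0.20 for Bcl6, -0.42 for Bid and -0.63 for Trp53. With positive-control scaling, which moved the median E0771 hypoxia difference from -0.36 to -1.53, the E0771 difference was -0.82 for Bcl6, -1.09 for Bid and -0.70 for Trp53, the MC38 difference 0.012 for Bcl6, and the mean -0.40 for Bcl6 and -0.067 for Trp53. The interaction was then -1.24 for Bax, -0.046 for Bcl2, -1.13 for Bcl2l1, -0.83 for Bcl6, -1.04 for Bid and -1.27 for Trp53, and E0771 minus MC38 was -0.42 for Bax. Without the 5 tumours of fewest counts the E0771 difference was 0.15 for Bax and -0.0050 for Trp53, the mean 0.14 for Bid and the Trp53 interaction -0.15. Background subtraction gave -0.0055 for Bid in E0771. It moved the E0771 hypoxia difference in the ratios to Bcl2 to between 1.78 for Bax and 2.39 for Trp53, with Bcl2 in hypoxic 12 set to its floor. On leaving out single tumours, the E0771 difference ran from -0.37 to 0.30 for Bax, -0.23 to 0.13 for Bcl2l1 and -0.068 to 0.33 for Bid, the MC38 difference from -0.32 to 0.081 for Bcl6, the mean from -0.27 to 0.071 for Bax and -0.12 to 0.082 for Bid, and the interaction from -0.21 to 0.46 for Bax and -0.15 to 0.32 for Trp53. The cause was not tested.

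Over all genes, 346 calls in MC38 became 209 (0 higher) with positive-control scaling and 0 without the 5 tumours, and 171 to 420 on leaving out single tumours. In E0771 0 became 129 with positive-control scaling (0 to 1 on leaving out single tumours). For the mean, 300 (5 higher) became 145 (80 higher) with centring and 0 without the 5 tumours or without E0771 hypoxic 12 (0 to 402). The interaction gave 132 calls without MC38 normoxic 10 and 0 otherwise. Between lines, 97 (34 higher) became 175 (2 higher) with positive-control scaling, 147 with background subtraction and 33 without the 5 tumours (72 to 140). Leaving out the 5 tumours also leaves 11 in the fit and 1 hypoxic E0771 tumour, which is assumed to vary like the others. The planned edgeR and DESeq2 tests were not run, because the deposited values are a normalized signal. Within a line no mouse number recurs, and 4, 12 and 17 occur in both lines. The deviations of these 3 pairs of different animals from their group means correlated at -0.15, -0.31 and -0.44. That is too few pairs to decide whether the numbers pair the tumours, and the correlation fitted for the random block was -0.79. With mouse number as a random replicate block, chosen after seeing the data, 3 members passed between lines, and as a fixed block it left 0 residual degrees of freedom. Low depth limits Bcl2 most, at 6 to 40 estimated counts in hypoxic E0771 tumours.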
